A study of Mus musculus with 6 samples.

Results

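The 31 genes described here make, sense, move, store and export cholesterol. They were picked by name from the deposited table of 18956 genes, and all 31 were found there. The table covers 6 RNA sequencing libraries of lung endothelial cells of the mouse, 3 with the label WT Cre-neg (called WT 1 to 3) and 3 with the label CSE-KO Cre-pos (called CSE-KO 1 to 3). CSE is cystathionine gamma-lyase, the enzyme encoded by Cth, which releases cysteine from cystathionine. The genotype and the presence of Cre changed together, so their parts cannot be told apart. The sources used here do not name the Cre driver, the deleted exons or the age of the mice. They also do not say that replicates came from separate animals or cultures, so the p-values describe the spread among these libraries alone, and that spread may be technical.

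Cells build cholesterol from acetyl-CoA by way of mevalonate, squalene and lanosterol. When sterol in the endoplasmic reticulum is low, SCAP escorts the transcription factor SREBP2 to the Golgi, where it is cut and released to switch on the genes of synthesis and uptake. INSIG proteins hold SCAP back when sterol is high. When oxysterols build up, the nuclear receptors LXRα and LXRβ switch on exporters such as ABCA1 and ABCG1 and the ubiquitin ligase MYLIP, which removes lipoprotein receptors. The SREBP2 arm and the LXR arm therefore usually answer to sterol in opposite directions. In endothelium, ABCA1 and ABCG1 pass cholesterol to lipoproteins, and plasma membrane cholesterol shapes caveolae and receptor signalling.

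Values are deposited whole-number scores, read here as read counts divided by a size factor per library and called normalized counts. WT libraries summed to 6028772 to 6052275, and libraries labelled CSE-KO to 5698922 to 5765008. Cth itself was at 29, 27 and 26 for WT 1 to 3 against 49, 43 and 63 for CSE-KO 1 to 3, which goes against the label. A sum over the whole gene does not check whether part of it was deleted, and groups are named by their labels throughout. Endothelial genes were abundant in all libraries, with Cdh5 between 2815 and 2849 in WT and between 2666 and 2678 in CSE-KO, while Vwf stood between 1 and 17. Of 12 endothelial markers, 10 were lower and 0 higher, and their summed level was 18055 to 18407 in WT and 12058 to 12792 in CSE-KO. Of 22 macrophage markers, 21 were in the table and 19 were tested, of which 17 were higher and 1 lower. Of all 13750 tested genes, 38.3% were higher and 39.0% lower. Most of the 17 were under 10 in every WT library. They passed the filter on low values (10 in 3 libraries) through the CSE-KO libraries alone, so their direction was largely fixed beforehand. The summed level of the macrophage markers was 2030 to 2099 in WT and 3097 to 3431 in CSE-KO. Most of the WT sum came from Mertk (953 to 988) and Cd14 (775 to 788). Cd14 was the marker that fell, from 779 ± 7.51 to 239 ± 67.1, and Mrc1 was not called (97.0 ± 16.1 against 90.7 ± 14.8). Adgre1, Ptprc, Itgam and Marco were at 0 in all WT libraries. Mesothelial markers summed to 20 to 41 in WT and 272 to 390 in CSE-KO. The part of these other cells in the results below was not tested.

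Both arms of the sterol response were lower in the libraries labelled CSE-KO. Of the 31 genes, 24 were called lower and 5 higher at an adjusted p under 0.05 (limma, Benjamini-Hochberg over all 13750 genes tested), and 2 were not called. Of all tested genes, 77.4% were called, 39.0% lower and 38.3% higher. The median log2 fold change (CSE-KO over WT) was -0.74 over the 31 genes and 0.00 over all tested genes. A fall of at least 2-fold was called in 11 of the 31, against 12.3% of all tested genes. Among the 21 genes taken as SREBP2-driven (the 18 synthesis enzymes, Insig1, Srebf2 and Stard4), 19 were lower and 1 higher, with a median of -0.79. The 3 genes taken as LXR-driven, Abca1, Abcg1 and Mylip, were all lower, with a median of -1.62. Genes that move cholesterol out of lysosomes or esterify it rose, namely Npc1, Npc2 and Soat1, together with the sterol sensor gene Insig2 and the desaturase gene Sc5d. In these bulk libraries, fewer cells that express a gene and less of its RNA per cell cannot be told apart.

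**Figure D1:**
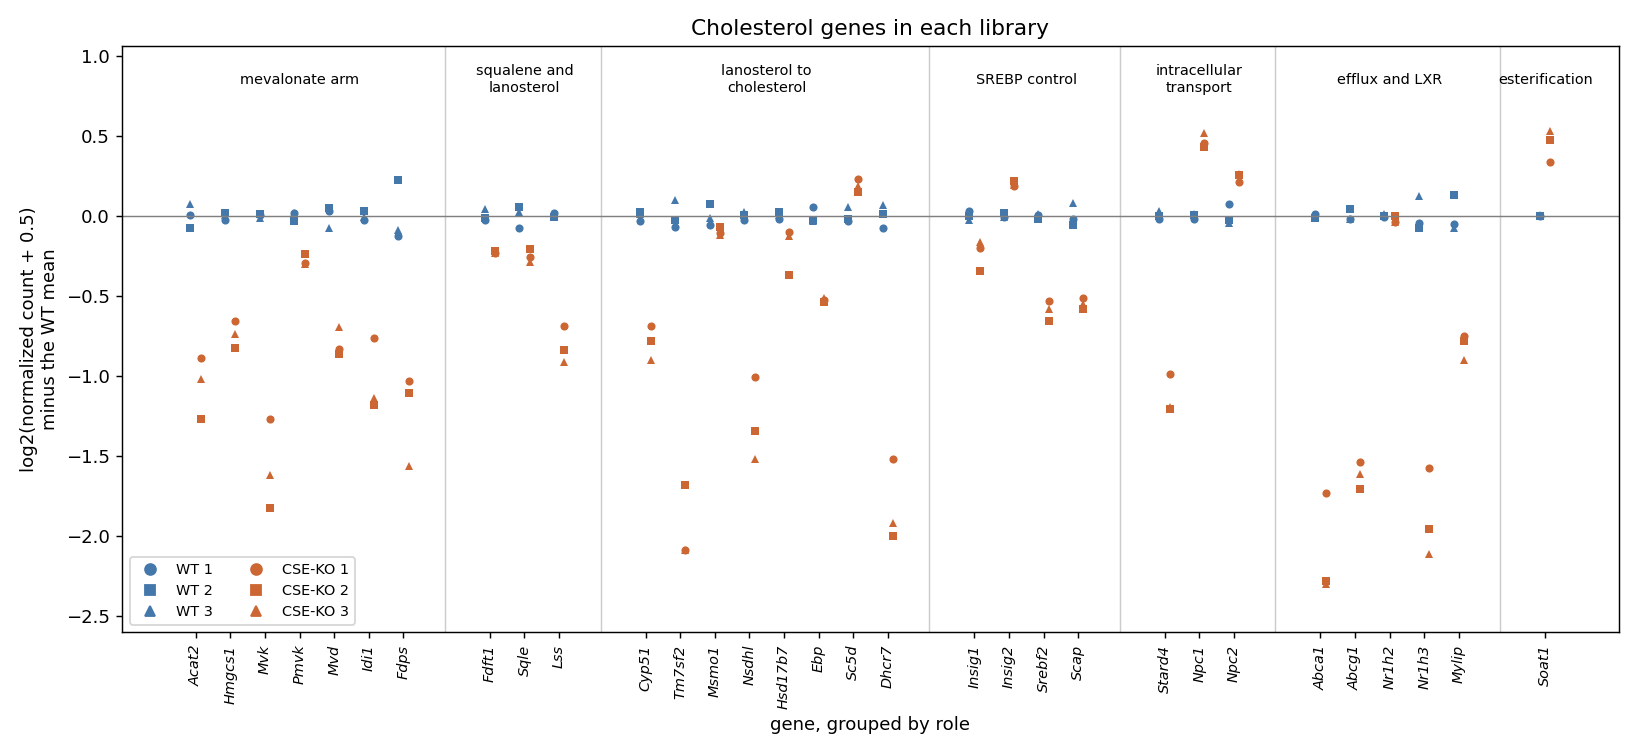
Each point is 1 library, drawn as log2(normalized count + 0.5) minus the mean of the 3 WT libraries (y axis) for each of the 31 genes, grouped by role (x axis). Blue points are WT, orange points CSE-KO, and circles, squares and triangles are replicates 1, 2 and 3. The orange points of Abca1, Nr1h3, Tm7sf2 and Dhcr7 lie farthest down, and those of Npc1, Npc2, Soat1, Insig2 and Sc5d lie above 0.

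All 7 tested enzymes of the mevalonate arm, which turns acetyl-CoA into the isoprenoid farnesyl diphosphate, were lower, with a median log2 fold change of -1.03. Mevalonate kinase, Mvk, fell the most. Its normalized counts were 339, 341 and 335 for WT 1 to 3 against 140, 95 and 110 for CSE-KO 1 to 3, so the groups were far apart and CSE-KO 1 was the highest of the 3. The log2 fold change of Mvk was -1.57 (SE 0.12, adjusted p = 3.6e-06), which left 34.0% of the WT mean. Hmgcs1, the synthase that forms HMG-CoA, stood at 803, 828 and 821 against 518, 460 and 490. Its level was 59.9% of WT (log2 fold change -0.74, SE 0.04, adjusted p = 4.4e-08). Mvd, which decarboxylates mevalonate diphosphate, was at 258, 262 and 240 against 142, 139 and 156 (log2 fold change -0.80, adjusted p = 1.2e-06). Pmvk, the kinase that acts between Mvk and Mvd, moved least in this arm, from 192, 186 and 192 to 155, 161 and 154. Its log2 fold change of -0.28 (adjusted p = 0.0021) did not pass a test against a fold of 1.2, and it was not called when WT 1 to 3 were counted as 1 sample (adjusted p = 0.052).

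The other 3 enzymes of this arm share sequence with near-identical copies, and their values are uncertain. Of the 75-base windows of the longest coding transcript, 80.4% recur letter for letter in transcripts of 5 other genes for Fdps, 20.7% in 4 other genes for Idi1 and 40.7% in Acat3 for Acat2. Whether reads that match several places were kept is not given in the sources used here. Fdps, which makes farnesyl diphosphate, was at 36, 46 and 37 for WT against 19, 18 and 13 for CSE-KO (adjusted p = 0.000275). Idi1, the isomerase before it, was at 72, 75 and 73 against 43, 32 and 33 (adjusted p = 7.3e-05). Acat2, the thiolase that joins acetyl-CoA units, went from 279, 264 and 292 to 150, 115 and 137 (log2 fold change -1.06, adjusted p = 1.3e-06). In each of these 3 genes the groups did not overlap. That was common in these libraries, since of all 13750 tested genes 5553 lay wholly lower and 5500 wholly higher in CSE-KO. For Fdft1 the shared part was 6.07%, and for the other 27 genes it was under 1% or 0.

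The 3 enzymes that make and fold squalene were lower by unequal amounts. Lss, which closes squalene epoxide into lanosterol, was at 503, 494 and 496 for WT against 308, 278 and 264 for CSE-KO. It kept 56.9% of its WT level (log2 fold change -0.81, SE 0.06, adjusted p = 1.6e-07). The squalene synthase gene Fdft1 was at 366, 370 and 384 against 317, 320 and 318, and the squalene epoxidase gene Sqle at 606, 664 and 650 against 535, 553 and 523. Both were called lower (log2 fold changes -0.23 and -0.25, adjusted p = 0.00048 and 0.00019), with groups that did not overlap, but neither passed a test against a fold of 1.2. Fdft1 and Sqle thus kept 85.3% and 83.9% of their WT means.

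Of the 8 enzymes that convert lanosterol toward cholesterol, 6 were lower, 1 was higher and 1 was not called. Tm7sf2, a sterol C14 reductase, was at 62, 64 and 70 for WT against 15, 20 and 15 for CSE-KO. Its fall to 25.5% of WT was the largest among the enzymes (log2 fold change -1.95, SE 0.18, adjusted p = 1.7e-06). Dhcr7, which reduces 7-dehydrocholesterol to cholesterol, was at 202, 215 and 224 against 74, 53 and 56. It kept 28.5% of WT (log2 fold change -1.81, SE 0.12, adjusted p = 1.6e-07). Nsdhl, part of the complex that removes the methyl groups at carbon 4, was at 387, 395 and 401 against 196, 155 and 137 (log2 fold change -1.29, adjusted p = 1.9e-05). For Mvk, Dhcr7 and Nsdhl alike, CSE-KO 1 was the library closest to WT.

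Cyp51, the lanosterol demethylase, fell from 622, 648 and 640 to 394, 370 and 341 (log2 fold change -0.79, adjusted p = 1.0e-07). Ebp, the sterol isomerase, fell from 268, 253 and 252 to 179, 177 and 180, with little spread among the CSE-KO libraries (log2 fold change -0.53, adjusted p = 6.9e-06). Hsd17b7, the ketoreductase of the demethylation complex, was at 297, 306 and 302 against 281, 233 and 276. Its call (log2 fold change -0.20, adjusted p = 0.022) rested on CSE-KO 2 and on the scaling, since the adjusted p was 0.078 without that library and 0.11 with equal totals. It was also lost with upper-quartile scaling (adjusted p = 0.060), with neither the mean trend nor robust variances (adjusted p = 0.065), without WT 2 (adjusted p = 0.066) and without WT 3 (adjusted p = 0.057). Msmo1, the methyl oxidase of the same complex, was at 471, 517 and 486 against 455, 467 and 452 and was not called (log2 fold change -0.10, 95% interval -0.19 to -0.01, adjusted p = 0.050). Without WT 1 it was called (adjusted p = 0.026). Sc5d, the desaturase that makes 7-dehydrocholesterol, went the other way, from 596, 603 and 635 to 716, 676 and 696. Its rise (log2 fold change 0.19, SE 0.04, adjusted p = 0.00068) was opposite to the fall of Dhcr7, which uses its product, and did not pass a test against a fold of 1.2.

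**Figure D2:**
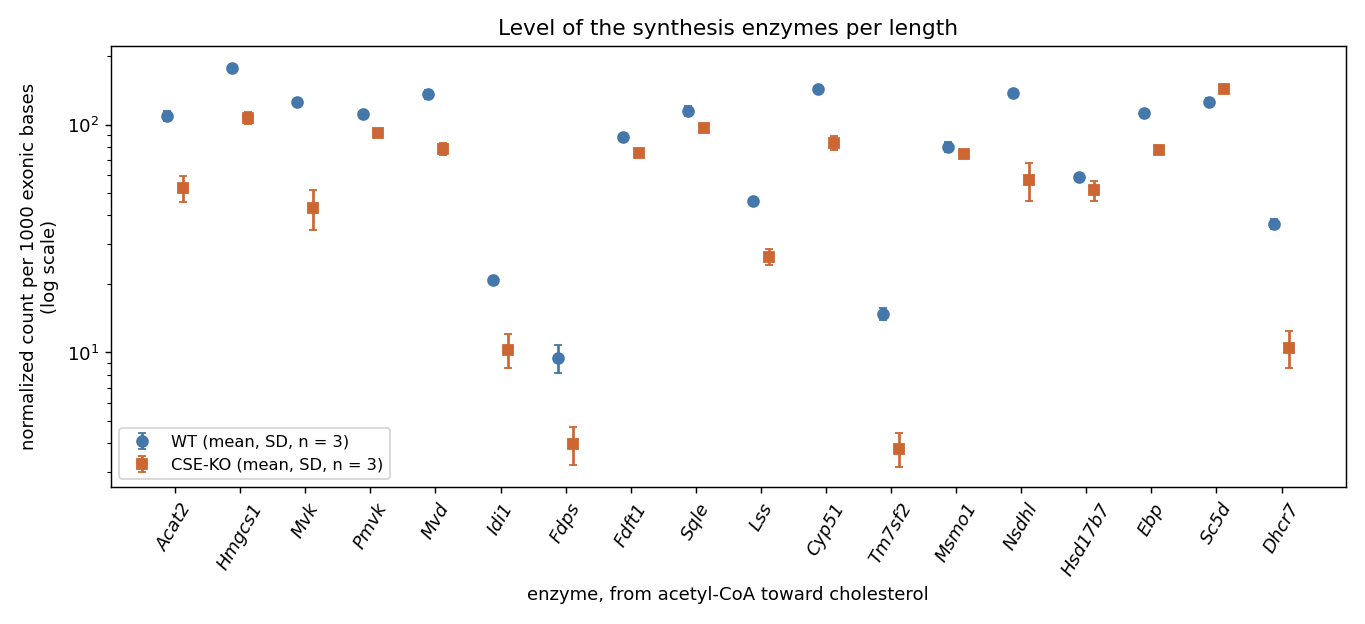
Mean normalized count per kilobase of exon (y axis, log scale) of the 18 synthesis enzymes in the order of the pathway (x axis), with SD over 3 libraries. Blue circles are WT and orange squares CSE-KO. Sc5d is the one enzyme whose orange square lies above its blue circle.

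Levels of different genes are set side by side here only per kilobase of exon. On this scale Hmgcs1 had the highest value of the 18 enzymes in WT, at 178 ± 2.81 (mean ± SD, n = 3). Cyp51 followed at 144 ± 3.02. Nsdhl at 138 ± 2.46 and Mvd at 136 ± 6.30 came next and differed from each other by less than the SD of Mvd. The lowest were Fdps (9.43 ± 1.31, uncertain as above), Tm7sf2 (14.8 ± 0.95) and Idi1 (20.9 ± 0.44). In CSE-KO the order at the top changed, with Sc5d at 143 ± 4.11, then Hmgcs1 at 107 ± 6.31 and Sqle at 96.8 ± 2.72. Tm7sf2 was the lowest at 3.79 ± 0.66, within the spread of Fdps at 3.96 ± 0.76. Exonic length counts all annotated exons of a gene, so a gene with many rarely used exons has too low a level on this scale. Msmo1 has 6144 exonic bases but 2044 in its longest coding transcript, and Sqle has 5546 against 2758. For Hmgcs1 the lengths are 4594 and 3464. By transcript length Msmo1 and Sqle would stand higher beside Hmgcs1, so the order given holds for the exonic scale alone.

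The genes that control SREBP2 split. Srebf2, which encodes SREBP2 and is itself one of its targets, was at 1768, 1738 and 1773 for WT against 1215, 1117 and 1176 for CSE-KO. Its level was 66.5% of WT, with a log2 fold change of -0.59 (SE 0.03, adjusted p = 2.0e-08). Scap, the escort, was lower by a like amount, from 770, 753 and 827 to 547, 523 and 534 (log2 fold change -0.55, adjusted p = 2.5e-07). The 2 INSIG genes moved in opposite directions. Insig1, a target of SREBP2, was at 542, 529 and 521 against 462, 417 and 473 (log2 fold change -0.24, adjusted p = 0.00096). Insig2, which does not depend on SREBP2 in the same way, was at 468, 477 and 467 against 535, 546 and 537 (log2 fold change 0.20, adjusted p = 0.00027). Neither change passed a test against a fold of 1.2. Per kilobase of exon, Insig1 was above Insig2 in WT (172 ± 3.43 against 136 ± 1.59), while in CSE-KO they stood at 146 ± 9.59 and 155 ± 1.69 and differed by less than the SD of Insig1. That closeness holds for the exonic scale alone (3093 and 3473 bases). The longest coding transcripts of both have 2697 bases, and by that length Insig2 would be above Insig1 in CSE-KO (normalized counts 539 ± 5.86 against 451 ± 29.7).

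Promoter sequence is shown for 5 genes, 3 that fell (Hmgcs1, Mvk and, further below, Abca1) and 2 that rose (Sc5d and Insig2). Of these, Hmgcs1, Mvk and Sc5d were taken as SREBP2-driven, Abca1 as LXR-driven and Insig2 as neither. RefSeq starts (GRCm38.p6) were at hand for 25 of the 31 genes, and the 250 bases before each start were searched whole, on both strands. Fdps, Fdft1, Sqle, Stard4, Npc1 and Abcg1 were not searched. The motifs were TCACNCCAC, a sterol regulatory element, CACGTG, the E-box, CCAAT, the box of NF-Y, a partner of SREBP2, and a repeat of the LXR type (GGTNA, 5 letters of any kind, GGTCA). None of these motifs overlapped in the sequences printed. The sterol regulatory element was found in Hmgcs1 alone of the 25 and in 1.05% of all 32851 promoters. The E-box was found before at least 1 start of 6 of the 25 genes, in 18.8% of their 32 promoters and 6.02% of all promoters. CCAAT was found before at least 1 start of 20 of the 25 genes, that is in 62.5% of their 32 promoters and 33.8% of all promoters. Stretches in an annotated exon are left out of the print, capitals mark the motifs (ATTGG is CCAAT on the other strand), and each sequence ends 1 base before the start.
Hmgcs1, chr13:119690101-119690350, plus strand: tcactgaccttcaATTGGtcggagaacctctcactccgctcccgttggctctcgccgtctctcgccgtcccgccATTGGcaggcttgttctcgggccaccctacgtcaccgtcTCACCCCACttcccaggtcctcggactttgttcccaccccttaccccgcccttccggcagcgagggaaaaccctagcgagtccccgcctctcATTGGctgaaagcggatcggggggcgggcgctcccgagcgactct
Mvk, chr5:114444061-114444268, plus strand: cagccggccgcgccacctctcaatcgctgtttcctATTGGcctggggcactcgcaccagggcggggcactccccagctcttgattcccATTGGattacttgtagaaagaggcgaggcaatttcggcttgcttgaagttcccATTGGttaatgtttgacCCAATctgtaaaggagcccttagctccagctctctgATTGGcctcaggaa
Sc5d, chr9:42264301-42264550, minus strand: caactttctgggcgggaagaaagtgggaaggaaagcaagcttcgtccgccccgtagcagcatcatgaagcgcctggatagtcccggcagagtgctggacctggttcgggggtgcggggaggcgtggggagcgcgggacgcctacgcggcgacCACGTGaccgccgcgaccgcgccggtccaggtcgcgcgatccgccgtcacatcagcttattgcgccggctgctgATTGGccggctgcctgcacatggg
Insig2, chr1:121332590-121332839, minus strand: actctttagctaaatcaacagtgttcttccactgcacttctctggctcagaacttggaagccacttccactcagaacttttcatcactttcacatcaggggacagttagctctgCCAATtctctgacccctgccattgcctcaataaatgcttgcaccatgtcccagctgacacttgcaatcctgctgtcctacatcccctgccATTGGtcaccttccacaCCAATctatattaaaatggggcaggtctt
In Hmgcs1 the capitals are 1 sterol regulatory element and 3 CCAAT boxes, and in Mvk 5 CCAAT boxes. Sc5d has 1 E-box and 1 CCAAT box, and Insig2 has 3 CCAAT boxes at the start shown, 1 of its 3 RefSeq starts, and no match at the other 2. Thus CCAAT stood before genes that fell and before genes that rose, and a match of letters is no evidence of binding. Nor does a missing match show that an element is absent, since variant letters and sites farther away were not searched.

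Genes that carry cholesterol inside the cell did not move together. Stard4, a soluble sterol carrier and SREBP2 target, was at 993, 1006 and 1028 for WT against 509, 436 and 441 for CSE-KO. It kept 45.8% of WT (log2 fold change -1.13, SE 0.06, adjusted p = 6.5e-08). Npc1 and Npc2, which pass cholesterol out of the lysosome, both rose. Npc1 was at 920, 936 and 941 against 1277, 1254 and 1335, a rise of 1.38-fold (log2 fold change 0.47, SE 0.03, adjusted p = 7.5e-08). Npc2 went from 715, 669 and 660 to 789, 812 and 815 (log2 fold change 0.24, SE 0.04, adjusted p = 8.6e-05), which did not pass a test against a fold of 1.2. Soat1, which esterifies cholesterol for storage, was at 680, 682 and 685 against 861, 948 and 986, a rise of 1.36-fold (adjusted p = 4.5e-06). Here CSE-KO 1 was the lowest of the CSE-KO libraries and again the closest to WT. All 3 rises came in libraries where most of the macrophage markers were higher, by the values given above, and the part of those cells was not tested.

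Of the 5 efflux and LXR genes, 4 were lower and 1 was not called, with a median of -1.62. Abca1, the exporter of cholesterol to lipid-poor apolipoproteins, was at 3365, 3307 and 3337 for WT against 1005, 687 and 676 for CSE-KO. Its mean dropped to 23.7% of WT, a log2 fold change of -2.10 (SE 0.18, adjusted p = 0.000415). Only 3.44% of all tested genes had a log2 fold change as low or lower. CSE-KO 1 stood well above CSE-KO 2 and 3, and without it the value was -2.29. The call was lost when WT 1 to 3 and CSE-KO 2 and 3 were each counted as 1 sample (log2 fold change -2.01, adjusted p = 0.125). Abca1 also had the most reads per exonic base of the 31 genes, and with an allowance for reads removed because they began at the same base, its log2 fold change was -2.32.

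Abcg1, the exporter that loads mature lipoprotein particles, was at 839, 874 and 838 against 292, 260 and 278. Its spread was small in both groups, and it had the smallest adjusted p of the 31 genes (log2 fold change -1.62, SE 0.05, adjusted p = 3.8e-10). Mylip fell from 168, 190 and 165 to 103, 101 and 93 (log2 fold change -0.81, SE 0.09, adjusted p = 6.6e-06). The 2 LXR genes differed. Nr1h3, which encodes LXRα, was at 286, 281 and 322 against 99, 76 and 68, or 27.3% of WT (log2 fold change -1.88, SE 0.13, adjusted p = 6.2e-07). Nr1h2, which encodes LXRβ, was at 609, 612 and 617 against 597, 613 and 595. Of the 31 genes it was the only one whose groups overlapped, against 2697 of all 13750 tested genes. Its log2 fold change was -0.03 (95% interval -0.10 to 0.04, adjusted p = 0.46), and it was 0.02 with upper-quartile scaling and 0.05 with equal totals. Per kilobase of exon, Nr1h2 exceeded Nr1h3 in both groups, at 183 ± 1.2 against 118 ± 8.89 in WT and 179 ± 2.94 against 32.2 ± 6.40 in CSE-KO. Most macrophage markers were higher and most endothelial markers lower in the same libraries, by the values given above, and their part in these falls was not tested.

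The promoter of Abca1 is shown because it holds the one repeat of the LXR type found among the 25 genes, a motif present in 0.177% of all promoters. Its capitals mark an E-box and, nearer the start, that repeat on the minus strand of the printed sequence.
Abca1, chr4:53159896-53160145, minus strand: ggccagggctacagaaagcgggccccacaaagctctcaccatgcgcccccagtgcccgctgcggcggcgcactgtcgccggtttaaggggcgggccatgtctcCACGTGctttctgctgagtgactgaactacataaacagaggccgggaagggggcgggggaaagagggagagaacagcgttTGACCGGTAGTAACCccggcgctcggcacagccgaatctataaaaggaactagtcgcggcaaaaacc
The promoter of Mylip held no such repeat in this window and 3 CCAAT boxes, and those of Nr1h2 and Nr1h3 held none of the 4 motifs. That of Abcg1 was not searched.

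**Figure D3:**
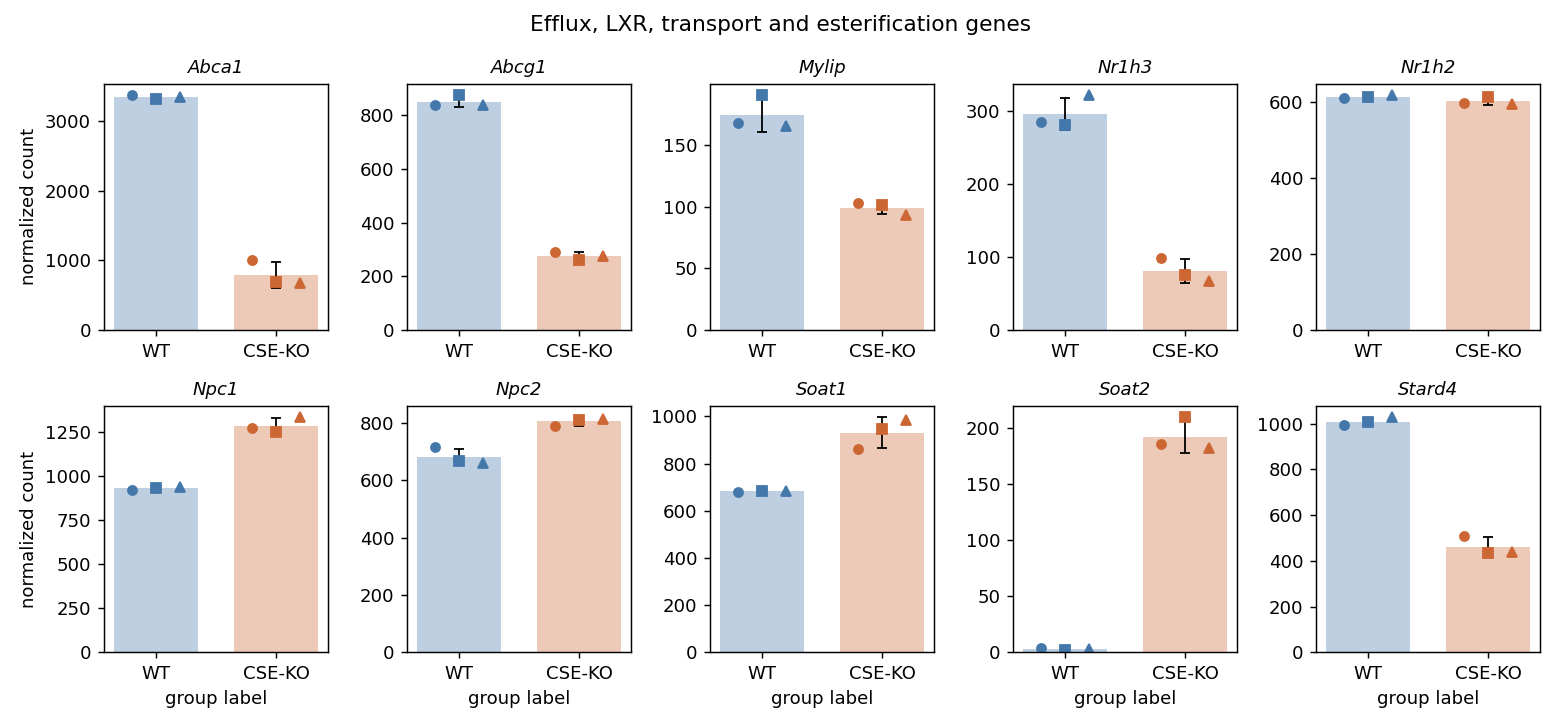
Normalized counts (y axis, from 0) of 10 efflux, LXR, transport and esterification genes by group label (x axis). Bars are means, error bars SD over 3 libraries, and points the single libraries. Abca1, Abcg1, Mylip, Nr1h3 and Stard4 are lower in CSE-KO, Npc1, Npc2, Soat1 and Soat2 higher, and the points of Nr1h2 overlap.

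Differences among the CSE-KO libraries ran through most of these genes. CSE-KO 1 was the closest to the WT mean in 20 of the 29 called members (69.0%) and in 61.2% of all called genes. Averaged over the 18 synthesis enzymes, the log2 difference from the WT mean was -0.71 in CSE-KO 1, -0.85 in CSE-KO 2 and -0.86 in CSE-KO 3. Over Abca1, Abcg1 and Mylip it was -1.34, -1.59 and -1.60 in the same order. The WT libraries lay between -0.03 and 0.02 in the first average and between -0.03 and 0.05 in the second. Among genes with few reads per exonic base, the variance between WT libraries was 0.99 of the mean, as counting noise alone gives, while it was 1.88 times the mean across the CSE-KO libraries and 1.19 between CSE-KO 2 and 3. Over all 11946 genes with a WT mean of at least 20 the ratio was 0.706 among WT libraries, and over the 31 members 0.489, both below counting noise. Among CSE-KO libraries it was 3.046 over the 29 members with such a mean. The fit pooled these unequal spreads, and the small adjusted p-values depend on that pooling. The WT libraries thus agree within sampling noise or more closely, no pair of them more than another, and they were kept as 3 samples. When they were counted as 1, Pmvk and Hsd17b7 were no longer called, in a fit whose spread comes from the CSE-KO libraries alone and assumes that the lone WT sample varies like them.

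**Figure D4:**
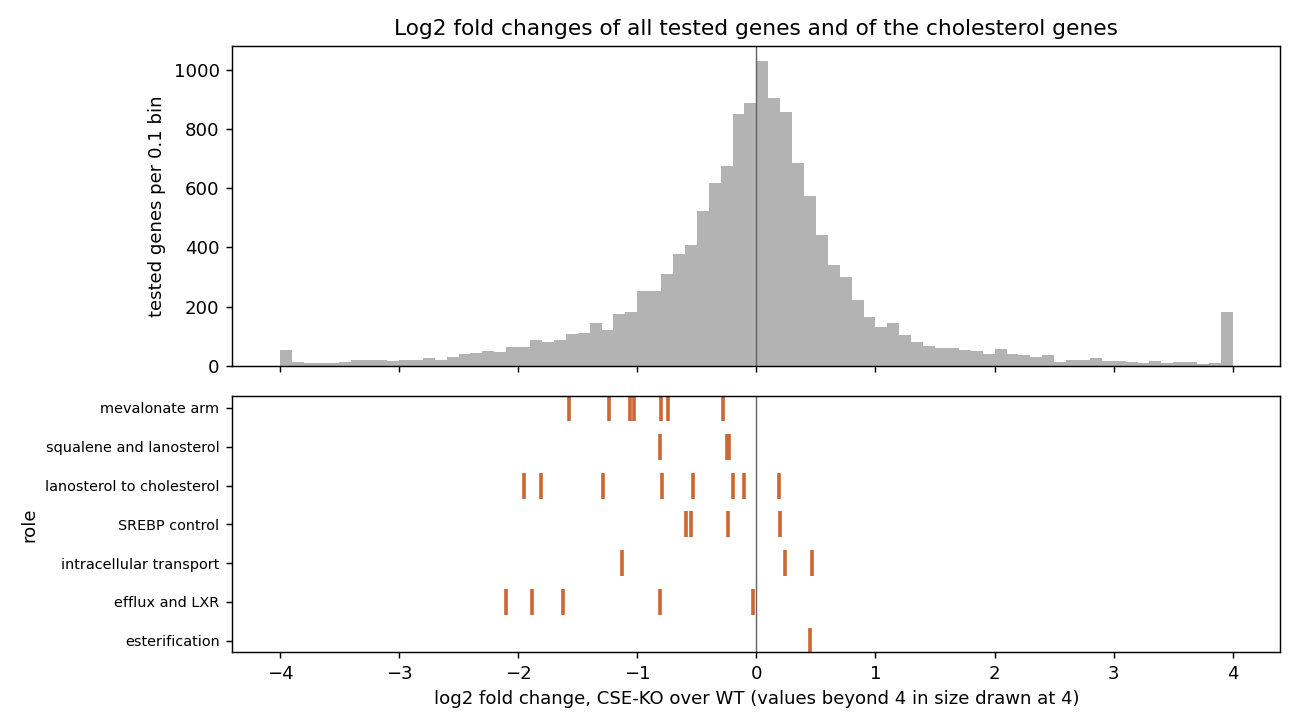
The upper panel counts all 13750 tested genes by log2 fold change of CSE-KO over WT (x axis, bins of 0.1). The lower panel marks the 31 genes by role on the same axis. Marks of the mevalonate arm all lie left of 0, and those of Npc1, Npc2 and Soat1 lie right of it.

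Other genes of sterol metabolism, taken from lists by role, moved less uniformly than the members. The counts of each list stand beside 39.0% lower and 38.3% higher among all tested genes. Of 10 tested genes of late synthesis and the isoprenoid branches, 5 were lower and 3 higher (median log2 fold change -0.11). Lbr, a sterol C14 reductase of the nuclear envelope that can replace Tm7sf2, was at 728, 703 and 700 for WT against 397, 353 and 338 for CSE-KO (adjusted p = 5.3e-08). Tmem97, a sterol-regulated membrane protein that binds NPC1, fell from 270 ± 3.46 to 172 ± 6.66 (adjusted p = 1.4e-06), and Erg28, a scaffold of the demethylation complex, from 248 ± 4.16 to 182 ± 3.61 (adjusted p = 2.3e-05). Nus1, a subunit of the enzyme that makes dolichol, fell by 0.18 on the log2 scale.

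Among 15 tested genes of SREBP processing and turnover, 5 were lower and 7 higher (median 0.13), against 39.0% and 38.3% of all tested genes. Mbtps1, the protease that makes the first cut in SREBP, fell from 1278 ± 6.93 to 873 ± 15.5 (log2 fold change -0.55, adjusted p = 9.0e-09). Erlin2, a membrane scaffold that restrains SREBP, fell by 0.42. Pgrmc1, a heme-binding partner of sterol enzymes, rose from 533 ± 12.1 to 832 ± 5.29 (log2 fold change 0.64, adjusted p = 1.3e-08). Srebf1, the sister gene of Srebf2 that drives fatty acid synthesis and is an LXR target, was at 901, 897 and 896 against 612, 561 and 617. Its log2 fold change of -0.59 equalled that of Srebf2 to 2 decimals. Of 12 lipogenic genes, which SREBP1 drives, 10 were lower and 1 higher (median -0.77). Scd1, a stearoyl-CoA desaturase, fell from 631 ± 18.5 to 208 ± 26.1 (adjusted p = 1.4e-07), Acaca, which makes malonyl-CoA, from 652, 651 and 688 to 326, 296 and 288 (adjusted p = 7.8e-09), and Acly, which makes cytosolic acetyl-CoA, from 1813.3 ± 22.9 to 1436.3 ± 27.4 (adjusted p = 1.7e-07). Fads2, a fatty acid desaturase, was at 760, 773 and 771 against 291, 247 and 228 (log2 fold change -1.59, adjusted p = 2.7e-07).

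Of 22 genes of lipoprotein uptake and sterol transport, 10 were lower and 8 higher (median -0.10). These counts lie near the shares of all tested genes, 39.0% lower and 38.3% higher. Gramd1b, which carries plasma membrane cholesterol to the endoplasmic reticulum, was at 512, 528 and 505 for WT against 241, 185 and 211 for CSE-KO (log2 fold change -1.28, adjusted p = 5.8e-07). Lipa, the lysosomal lipase that frees cholesterol from its esters, fell from 778 ± 3.51 to 416 ± 29.1 (adjusted p = 2.0e-08), and the lysosomal membrane protein gene Scarb2 from 731 ± 34.8 to 509 ± 19.2 (adjusted p = 6.8e-07). Both fell where Npc1 and Npc2, which act after the lipase, rose. Osbpl6, a member of the oxysterol-binding protein family, rose from 71.7 ± 5.51 to 190 ± 9.50 (log2 fold change 1.40, adjusted p = 1.1e-07).

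On the LXR and oxysterol list, 11 of 16 genes were tested. Of these, 7 were lower and 2 higher (median -0.61), against 39.0% and 38.3% of all tested genes. Rxra, the partner receptor of LXR, was at 885, 875 and 918 against 514, 472 and 498 (log2 fold change -0.85, adjusted p = 7.7e-09). Abca7, a relative of Abca1, fell from 901 ± 51.5 to 420 ± 7.94 (adjusted p = 3.0e-09). Arl4c, a small GTPase gene that LXR can induce, rose instead, from 465, 475 and 442 to 881, 915 and 897 (log2 fold change 0.96, adjusted p = 2.2e-09). The clock gene Nr1d2, a nuclear receptor, rose from 175 ± 3.21 to 480 ± 24.2 (adjusted p = 1.9e-09).

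Of 6 tested genes of esterification and lipid droplets, 2 were lower and 4 higher (median 0.34), against 39.0% and 38.3% of all tested genes. Soat2, the second sterol acyltransferase, known from liver and intestine, was at 4, 2 and 3 for WT against 185, 209 and 182 for CSE-KO (adjusted p = 3.7e-09). It passed the filter on low values through the CSE-KO libraries alone. Per kilobase of exon, Soat2 reached 86.8 ± 6.69 in CSE-KO, against 95.2 ± 6.54 for Soat1, so that their levels differed by less than 2 SD of either. Plin2, which coats lipid droplets, rose from 537 ± 8.14 to 747 ± 9.50 (log2 fold change 0.48, adjusted p = 1.1e-07), and the triglyceride lipase gene Pnpla2 rose by 0.19 on the log2 scale (adjusted p = 0.00026). Lipe, a hydrolase of cholesteryl and acylglycerol esters, fell from 167 ± 3.21 to 127 ± 5.03 (adjusted p = 0.00044).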

How the data were processed

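RNA was purified from lung endothelial cells, and stranded mRNA libraries were made from 300 ng and read as single ends of 75 bp, per the labels' protocols. The submitters' processing notes name Trimmomatic 0.39, STAR 2.7.3a, Picard 2.21.7, featureCounts 1.6.5, DESeq2 1.26.0 and mm10, with no role or order. The table the authors deposited holds a whole-number score per gene and library. No header or label gives its unit. It was read as counts divided by size factors and rounded, since median-ratio factors recomputed from it lay between 1.003 and 1.008 and some whole numbers were never used (43 in WT 1, 70 in CSE-KO 1). A count model was therefore not used. Raw depth is unknown, and totals only approximate it.

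Values were taken as log2(value + 0.5), and genes that reached 10 in 3 or more libraries entered limma 3.58.1 in R 4.3.3 (group only, mean trend, robust variances, two-sided). All 31 members passed this filter. Fold changes stand on that log2 scale, which understates those of low genes. Exonic lengths came from GENCODE mouse release 21, which gave all 31 members the same coordinates as the table. Named genes were all members and, of each other list, up to 4 with the smallest adjusted p plus Srebf1. The members and lists were chosen with earlier results of these data known. Same-numbered libraries of the 2 groups were not paired in the main fit (correlations of deviations -0.001, 0.02 and 0.011). These correlations cannot decide whether samples were paired, since the WT libraries differ by no more than counting noise. Alternatives covered scaling, filters, pseudocounts, moderation, a minimum fold, left-out libraries, a replicate block, merged libraries and reads lost at shared start positions.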

Additional observations from a re-analysis of the deposited data

How the results depend on the processing

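The 30 members other than Nr1h2 kept their direction in every alternative run on them (a filter at 50 left out Fdps). The log2 fold change of Nr1h2 turned to 0.02 with upper-quartile scaling and 0.05 with equal totals. The count of members called lower, 24, stayed between 19 (test against a fold of 1.2) and 25 (pseudocount 1 and 5, without WT 1, and the replicate block). The count of members called higher stayed at 5 except against a fold of 1.2, where it was 2, and there 6711 of all tested genes were called, against 10639. Leaving out 1 library at a time gave 23 to 25 members lower, 5 higher and 10137 to 10636 genes in all. Labels share replicate numbers, and no pair correlated above 0.1, which cannot decide on pairing for the reason given above. With the replicate block, 25 members were lower and 10440 genes were called, and Msmo1 was the only member whose call changed (log2 fold change -0.10, adjusted p = 0.0498). With WT 1 to 3 counted as 1 sample, 22 members were lower, and 21 with CSE-KO 2 and 3 also merged, in fits with 2 and 1 residual degrees of freedom, whose spread comes from the CSE-KO libraries alone, so that calls kept there show little about stability. Rounding and removal of duplicate reads, if it was done, limit the precision of all values.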

Other observations

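Genes of the isoprenoid branches, which leave the pathway around farnesyl diphosphate, did not fall as a group. Apart from Nus1, given above, 3 of them rose and 2 were not called, where 38.3% of all tested genes rose. They come from a list made by role and are named here after their values were seen. Ggps1, which makes geranylgeranyl diphosphate for protein prenylation, was at 523, 558 and 540 for WT against 641, 618 and 646 for CSE-KO (log2 fold change 0.23, adjusted p = 0.00013). Dhdds, the catalytic partner of Nus1 in dolichol synthesis, was at 512, 499 and 541 against 571, 600 and 582 (log2 fold change 0.18, adjusted p = 0.0018). Pdss2, a subunit of the enzyme that makes the tail of coenzyme Q, was at 136, 138 and 102 against 198, 180 and 193 (log2 fold change 0.61, adjusted p = 0.00050), while its partner Pdss1 was at 171, 146 and 154 against 146, 163 and 148 and was not called (adjusted p = 0.66). Coq2, the prenyltransferase that joins that tail to the ring, was at 278, 300 and 268 against 299, 275 and 285 and was not called (log2 fold change 0.02, adjusted p = 0.735). Of the 3 NF-Y subunit genes, 1 fell, 1 rose and 1 was not called, with Nfya at 724, 725 and 715 against 610, 621 and 655 (log2 fold change -0.20, adjusted p = 0.00027) and Nfyb at 327, 317 and 315 against 407, 393 and 401 (log2 fold change 0.32, adjusted p = 2.9e-05). Nfyc was at 185, 188 and 191 against 204, 199 and 216 (log2 fold change 0.13, adjusted p = 0.0688).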
